A study of Rattus norvegicus with 8 samples.

Results

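The genes described here are 10 genes of foam cells and of lipid handling, namely Trem2, Gpnmb, Msr1, Cd36, Olr1, Apoe, Lpl, Abca1, Abcg1 and Fabp5. They were chosen by name from what they are known to do, with earlier results of these data known. All 10 were found among the 37209 genes counted. mRNA was sequenced from the left carotid arteries of male Sprague-Dawley rats of about 400 g, 2 weeks after a 2 F (0.67 mm) balloon dilatation catheter had been used to injure the intima (injured arteries 1 to 4), and from the undamaged right carotid arteries (control arteries 1 to 4). No group carried a genetic change or a drug treatment. The study used the right artery as a self-control, so the control artery came from an operated animal. The paper describes harvested arteries and no separation of wall layers for the sequencing, so the RNA of all cell types present is mixed. Lipid itself was not measured in these libraries, and "foam cell" is used here only as the name of the gene group.

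A foam cell is a macrophage or a smooth muscle cell filled with droplets of cholesteryl ester. Scavenger receptors such as Msr1, Cd36 and Olr1 take up modified lipoproteins, the lysosomal acid lipase frees the cholesterol and Soat1 esterifies it again for storage, and the transporters Abca1 and Abcg1 pass it out to apolipoproteins such as Apoe. Abca1 and Abcg1 are targets of the liver X receptors (LXR), which sense oxysterols, and Trem2 and Gpnmb mark the lipid-associated macrophages described in atherosclerotic plaques.

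Of the 10 genes, RefSeq's promoter table for the build GRCr8 had an entry for 6, Trem2, Gpnmb, Cd36, Olr1, Apoe and Abca1. The entries of 4 genes that rose in the injured arteries are shown, because each held at least 1 of the 4 motifs searched. The windows run from 150 bases before the annotated start to the first 20 bases from it, on the gene's own strand. They lie at chr9:20151760-20151929 (minus strand), chr4:79340978-79341147 (plus strand), chr4:164634528-164634697 (minus strand) and chr5:72596454-72596623 (minus strand). Capitals mark the motif matches, and the motifs were chosen with the results known.
Trem2: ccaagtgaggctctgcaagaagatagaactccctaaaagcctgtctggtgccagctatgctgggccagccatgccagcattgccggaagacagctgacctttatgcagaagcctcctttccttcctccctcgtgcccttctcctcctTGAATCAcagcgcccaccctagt
Gpnmb: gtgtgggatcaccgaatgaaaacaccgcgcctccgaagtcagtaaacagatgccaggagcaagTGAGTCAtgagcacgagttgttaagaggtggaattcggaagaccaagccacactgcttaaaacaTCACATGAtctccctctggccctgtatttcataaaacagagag
Olr1: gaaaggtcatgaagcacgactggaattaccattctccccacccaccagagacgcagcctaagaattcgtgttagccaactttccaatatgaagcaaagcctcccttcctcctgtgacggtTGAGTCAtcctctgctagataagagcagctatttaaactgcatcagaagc
Abca1: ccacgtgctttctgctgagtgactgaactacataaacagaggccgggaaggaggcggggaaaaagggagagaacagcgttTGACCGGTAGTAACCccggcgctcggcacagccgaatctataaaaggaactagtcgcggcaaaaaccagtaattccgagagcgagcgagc
The motifs were searched on both strands over the whole 300-base entries, from 250 bases before the start to 50 bases from it. The pattern searched for AP-1, TGANTCA, allows any middle base, and 7.33% of the 33469 promoters of the table held it. It began 3 bases before the start of Trem2, 87 bases before that of Gpnmb and 30 bases before that of Olr1. The middle base was G in Gpnmb and Olr1 but A in Trem2. The usual AP-1 site has G or C there, so the Trem2 match is not of the usual form. The M-box TCANGTGA, a motif of the MiT/TFE factors that govern lysosomal genes, began 23 bases before the start of Gpnmb and was held by 3.93% of the promoters. A direct repeat of the LXR type, GGTNA and GGTCA with 5 bases between them, began 70 bases before the start of Abca1, and 0.23% of the promoters held it. The PU.1 motif GAGGAAGT, held by 2.42% of the promoters, was found in none of the members' entries. None of the 4 motifs was found in the 3 entries of Apoe or in that of Cd36. A match describes these letters only, and factor binding was not measured here.

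The total count lay between 13470754 and 15276952 in the control arteries and between 11459632 and 16658089 in the injured ones. Levels are given as read counts scaled to a common library size (CPM) with edgeR's TMM factors, and 3 counts, taken as the floor, amounted to 0.18 to 0.262 CPM per library, for counting error only. Contractile smooth muscle markers, 10 genes such as Myh11 and Acta2, summed to 40629 to 54537 CPM in control arteries 1 to 3, 18519 CPM in control artery 4 and 11433 to 18069 CPM in the injured arteries. Brain neuron markers summed to at most 22.3 CPM in any library, with Neurod6 and Gad2 at 3 counts or fewer in every artery, although the extraction text names a brain region. Control artery 4 stood apart, with a correlation of log2 CPM across genes of 0.83 to 0.852 with the other controls against 0.976 to 0.978 among these. It held 12035 CPM of 10 sympathetic neuron markers against 5.41 to 9.0 CPM in the other controls, while injured artery 3 held 2805 CPM and the other injured arteries 14.3 to 199.9 CPM. Calls and counts that changed when control artery 4 was left out are therefore also given without it.

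Of the 10 genes, all had enough counts for edgeR's quasi-likelihood test and 5 rose in the injured arteries, with a p adjusted by Benjamini-Hochberg over all 14359 tested genes (FDR) under 0.05 and a change of more than 2-fold. These were Trem2, Gpnmb, Olr1, Apoe and Abca1, and none of the 10 fell. Of all tested genes, 10.9% were called, 8.31% as higher and 2.57% as lower in the injured arteries. In the same 5 genes every injured artery lay above every control artery, which held for 14.3% of all tested genes. Without control artery 4, Abcg1 and Fabp5 were called as well, so that 7 of the 10 were higher, where 16.2% of all tested genes were called and 12.3% were called higher. Msr1, Cd36 and Lpl were not called in any of the fits. In bulk arteries, more cells of a type and more RNA per cell cannot be told apart.

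**Figure D1:**
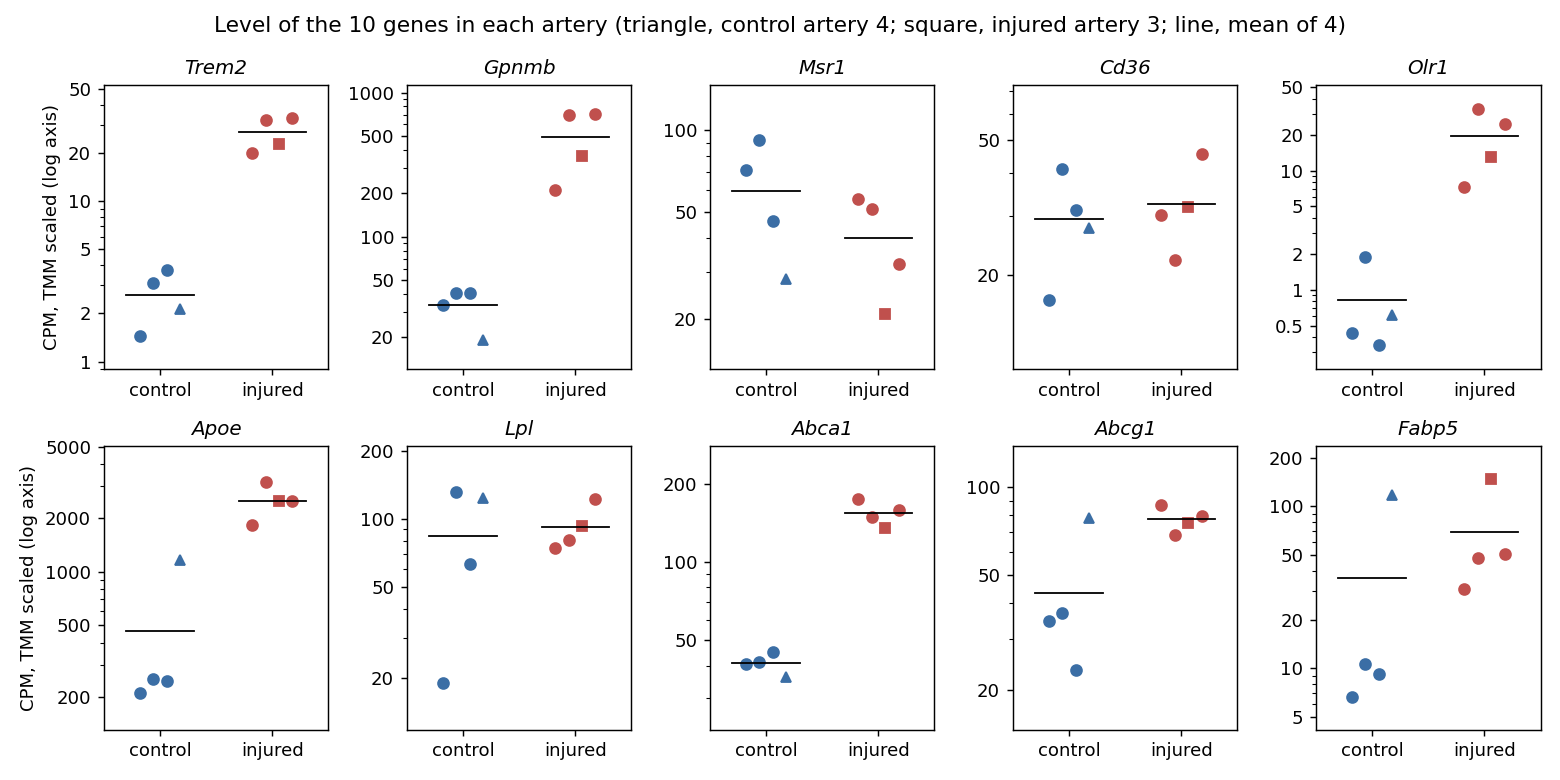
Level of each of the 10 genes (CPM, TMM scaled, log axis) in the 4 control arteries (blue) and the 4 injured arteries (red), with a line at the mean of 4. Trem2, Gpnmb, Olr1, Apoe and Abca1 do not overlap between the groups, while control artery 4 (triangle) lies at 1164 CPM of Apoe and 117.4 CPM of Fabp5, far above the other controls.

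Trem2, a receptor for lipids and lipoproteins on macrophages, stood at 1.44, 3.11, 3.74 and 2.12 CPM in control arteries 1 to 4 and at 19.9, 32.2, 22.8 and 33.2 CPM in injured arteries 1 to 4. Every injured artery was at least 5.32 times as high as the highest of control arteries 1 to 3, and control artery 4 lay within the range of the other controls. With means of 2.60 ± 1.02 CPM (SD, n = 4) in the controls and 27.0 ± 6.68 CPM (SD, n = 4) after injury, the log2 fold change came to 3.37 (standard error 0.34, FDR = 0.000697 in edgeR's test). Over all 70 relabellings of the arteries, an exact permutation test on log2 CPM gave a two-sided p = 0.0286, the smallest that 4 arteries against 4 allow. The control level rested on 20 to 54 counts per artery. Leaving out each artery in turn gave log2 fold changes of 3.16 to 3.59, and Trem2 was called in all 8 fits.

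Gpnmb, a transmembrane glycoprotein of lysosome-rich macrophages, had the second largest rise of the 10. Its level was 33.3, 40.6, 40.3 and 19.3 CPM in control arteries 1 to 4 and 209.6, 696.2, 359.8 and 705.8 CPM in injured arteries 1 to 4. Injured arteries 2 and 4 were the highest and injured artery 1 the lowest of the injured, and the injured arteries had the same order in Trem2. The log2 fold change was 3.88 (standard error 0.46, FDR = 0.0013 in edgeR's test), and it stayed between 3.66 and 4.14 when single arteries were left out.

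The scavenger receptors did not move together. Olr1, the receptor for oxidised LDL known as LOX-1, was near the floor in the controls, at 0.432, 1.88, 0.346 and 0.615 CPM, or 5 to 23 counts. In injured arteries 1 to 4 it reached 7.34, 32.7, 12.9 and 24.6 CPM. The lowest injured artery was thus 3.9 times as high as the highest control, and the log2 fold change of 4.56 (standard error 0.71, FDR = 0.00419 in edgeR's test) was the largest of the 10 genes. It ranged from 4.19 to 5.34 when single arteries were left out, always called. The symbol Olr1 is that of the LDL receptor and not of a rat olfactory receptor, whose symbols start alike.

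Msr1, the class A scavenger receptor of macrophages, went the other way without passing the test. It stood at 71.5, 91.9, 46.1 and 28.1 CPM in control arteries 1 to 4 and at 55.6, 51.1, 21.0 and 32 CPM in injured arteries 1 to 4. The groups overlapped, since control artery 4 was the lowest control and 3 injured arteries lay above it. The log2 fold change was -0.57 (standard error 0.42, FDR = 0.394 in edgeR's test) and, without control artery 4, -0.81 (standard error 0.35, FDR = 0.121). Of the 10 genes, Msr1 alone had a negative log2 fold change.

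Cd36, a receptor for fatty acids and oxidised LDL that adipocytes, endothelium and muscle carry besides macrophages, had 16.9, 41.2, 31.1 and 27.6 CPM in the controls and 30.1, 22.2, 31.7 and 45.6 CPM in the injured arteries. The groups covered nearly the same range. Its log2 fold change was 0.15 (standard error 0.30, FDR = 0.777 in edgeR's test) and turned to -0.05 without control artery 1 and to -0.06 without injured artery 4, so no direction can be given.

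Apoe, the apolipoprotein that carries cholesterol out of macrophages and that glia make too, was measured at 209.1, 251.0, 244.7 and 1164 CPM in control arteries 1 to 4. The injured arteries had 1831, 3167, 2495 and 2496 CPM. Control artery 4 was 4.64 times as high as the next control, and yet every injured artery lay above it. The controls averaged 467.1 ± 464.8 CPM (SD, n = 4) and the injured arteries 2497 ± 545.2 CPM (SD, n = 4), with a log2 fold change of 2.41 (standard error 0.61, FDR = 0.0304 in edgeR's test). Among the fits that left out 1 artery, Apoe was called only without control artery 4, where the log2 fold change was 3.41 (standard error 0.21, FDR = 0.000127), and in the other 7 it was not, with an FDR of up to 0.0843.

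Lpl, the lipase that frees fatty acids from lipoproteins, overlapped between the groups. It had 18.9, 131.3, 63.1 and 123.7 CPM in the controls and 74.1, 80.5, 93.3 and 122.1 CPM in the injured arteries. The controls held both the lowest and the highest artery, and their SD of 53.2 CPM around a mean of 84.3 CPM (n = 4) was wider than the 21.3 CPM around 92.5 CPM (SD, n = 4) of the injured arteries. The log2 fold change was 0.13 (standard error 0.52, FDR = 0.888 in edgeR's test), and -0.21 without control artery 1 and -0.03 without injured artery 4. The summed adipocyte markers, 10 genes such as Adipoq and Plin1, were likewise lowest of the controls in artery 1, at 217.1 CPM, and stood at 1108, 424.5 and 1024 CPM in control arteries 2 to 4 against 169.3 to 416.7 CPM in the injured ones. Skeletal muscle markers summed to 103.6 to 323.3 CPM in the controls and 320.1 to 1143 CPM in the injured arteries, and 7 of the 10 tested were called higher. The part of fat or muscle around the artery in the levels of Lpl and Cd36 was not tested.

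Abca1, the transporter that loads cholesterol onto apolipoproteins, had the smallest standard error of the 10. Its level was 40.5, 41.4, 45.0 and 36.3 CPM in the controls and 174.7, 148.2, 135.3 and 158.7 CPM in the injured arteries. The groups were far apart, and the lowest injured artery was 3.01 times as high as the highest control. The log2 fold change of 1.92 (standard error 0.12) had the smallest FDR of the 10 genes (0.000162 in edgeR's test), and it moved only between 1.85 and 1.97 when single arteries were left out.

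Abcg1, which passes cholesterol on to high-density lipoprotein, differed from Abca1 in control artery 4. It stood at 34.7, 36.8, 23.4 and 78.3 CPM in control arteries 1 to 4 and at 87.0, 68.3, 75.5 and 79.5 CPM in injured arteries 1 to 4. Control artery 4 lay among the injured arteries and above injured arteries 2 and 3. With all arteries the log2 fold change was 0.83 (standard error 0.34, FDR = 0.14 in edgeR's test), not called, and without control artery 4 it was 1.29 (standard error 0.17, FDR = 0.00145), called. Whether Abca1 and Abcg1 differed from each other in their change was not tested.

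Fabp5, a fatty acid binding protein of macrophages, skin and nerve, depended most on single arteries. It had 6.69, 10.7, 9.28 and 117.4 CPM in control arteries 1 to 4 and 31.1, 47.9, 148.1 and 51.0 CPM in injured arteries 1 to 4. Control artery 4 was 10.9 times as high as the next control and higher than injured arteries 1, 2 and 4, whereas the lowest injured artery was 2.9 times as high as the highest of control arteries 1 to 3. The log2 fold change was 0.93 (standard error 0.99, FDR = 0.567 in edgeR's test) with all arteries and 2.97 (standard error 0.56, FDR = 0.00645) without control artery 4, and it was 0.24 without injured artery 3. Pseudogene copies of Fabp5 are annotated in RefSeq, and reads they share with it could not be told apart here.

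**Figure D2:**
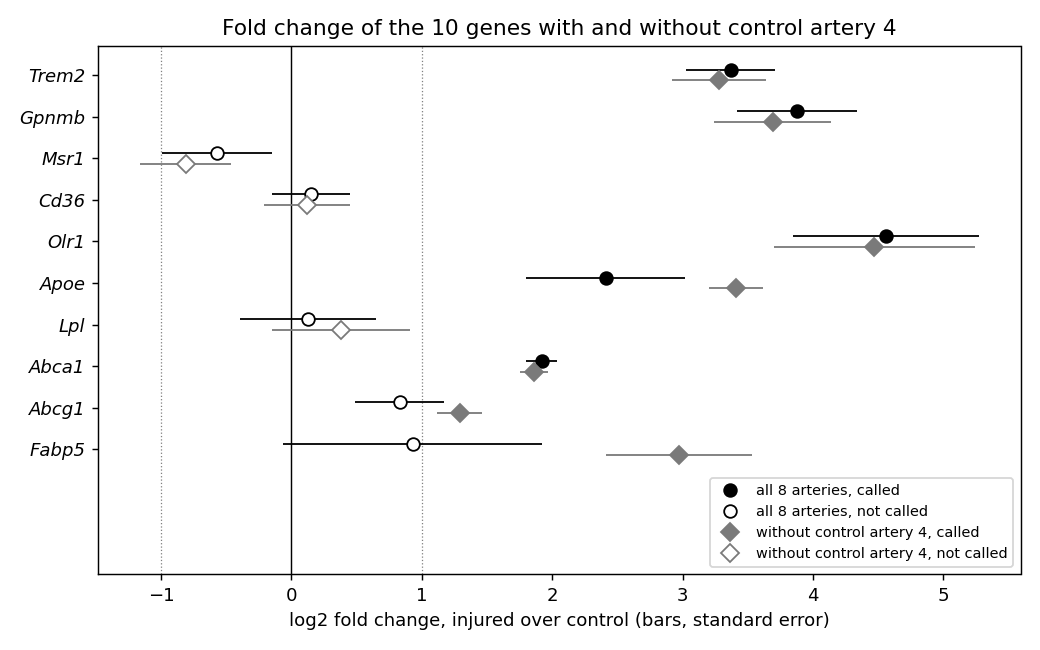
Log2 fold change of injured over control arteries for the 10 genes, with standard errors, from all 8 arteries (circles) and without control artery 4 (diamonds), filled where called. Abcg1 moves from 0.83 to 1.29 and Fabp5 from 0.93 to 2.97, both then called, while Gpnmb goes from 3.88 to 3.69 and Abca1 from 1.92 to 1.86.

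Control artery 4, in which Apoe, Abcg1 and Fabp5 lay above the other controls, was also the control with the most neural markers. Control artery 4 and injured artery 3 had the most sympathetic neuron markers of their groups, and Fabp5 was highest in the same arteries. Apoe, at 2495 CPM, and Abcg1, at 75.5 CPM, were not highest in injured artery 3. Among the injured arteries Apoe was highest in artery 2 (3167 CPM) and Abcg1 in artery 1 (87.0 CPM). Markers of Schwann cells and satellite glia summed to 365.9 to 1221 CPM in control arteries 1 to 3, 1505 CPM in control artery 4 and 631.1 to 2023 CPM in the injured arteries, the highest being injured artery 3. Of these 10 glial markers, 8 were tested and none was called, with a median log2 fold change of 1.0, while 2 of the 8 were called higher without control artery 4, with a median of 1.25. Control artery 4 and injured artery 3 were also both left out, a choice made after seeing the data. The 7 genes called without control artery 4 were then called again, where 17.2% of all tested genes were called. The part of neural tissue in the levels of Apoe, Abcg1 and Fabp5 was not tested.

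**Figure D3:**
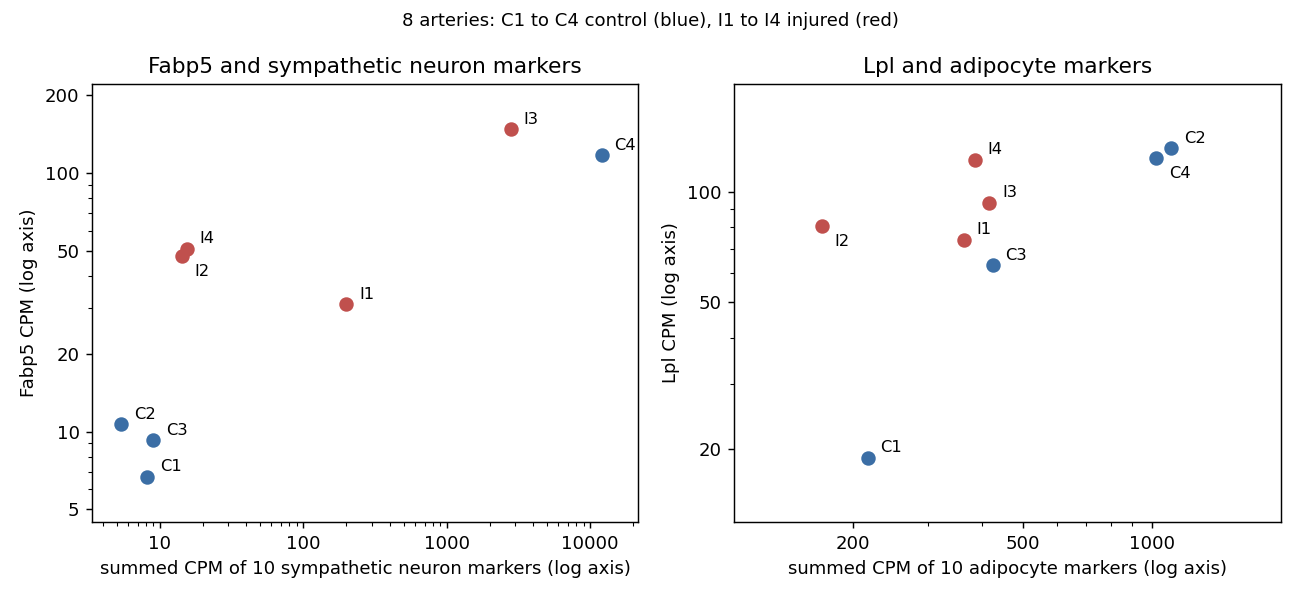
Left, Fabp5 against the summed level of 10 sympathetic neuron markers. Right, Lpl against the summed level of 10 adipocyte markers, both in CPM on log axes, for control arteries C1 to C4 (blue) and injured arteries I1 to I4 (red). C4 and I3 are highest in both measures on the left, and C1 has the lowest Lpl and C2 the highest of both measures on the right.

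Macrophage markers rose with the 5 called genes. Of 13 markers such as Csf1r, Cd68 and Lyz2, 12 were called higher and none lower, with a median log2 fold change of 2.54 against -0.06 over all tested genes, and their sum went from 233.9 to 341.7 CPM in the controls to 1929 to 2860 CPM in the injured arteries. The markers changed unequally. Cd163 overlapped between the groups, at 14.8 to 34.4 CPM in the controls and 19.8 to 39.8 CPM in the injured arteries. Lyz2 went from 40.7 to 79.6 CPM in the controls to 943.6 to 1752 CPM in the injured arteries. The mean log2 CPM of the 13 markers was 2.46 higher in the injured arteries, and a gain above this mean need not exceed that of every marker. Each of the 10 genes was therefore also set against this mean within its own artery, which hardly depends on the scaling of the library.

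Relative to the macrophage markers, the 10 genes fell into groups that differ from those above. The log2 difference of Trem2 from the marker mean was -2.4 ± 0.35 (SD, n = 4) in the controls and -1.5 ± 0.33 (SD, n = 4) in the injured arteries. Its gain thus exceeded that of the marker mean by 0.90 (exact permutation test, two-sided p = 0.0286), without overlap. Gpnmb exceeded it by 1.31 and Olr1 by 1.92, and in both 1 injured artery overlapped the controls (exact permutation p = 0.0571 for each). For Apoe the result turned on control artery 4. Its gain exceeded that of the marker mean by 0.35 with all controls, with overlap (exact permutation p = 0.657). With control arteries 1 to 3 it did so by 0.96, and all injured arteries then lay above these controls (Trem2 0.87 in the same comparison). Fabp5 differed by -0.68, or by 0.29 with control arteries 1 to 3 (exact permutation p = 0.543 over all arteries).

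The other 5 genes were lower relative to the markers in every injured artery than in any control artery. Abca1, called higher by itself, changed by -0.55 against the marker mean, and Abcg1 by -1.48. Lpl changed by -2.01, Cd36 by -2.29 and Msr1 by -3.0, none of them called by itself. Since the marker mean rose by 2.46, a gene without any change of its own would also fall against it. The test therefore concerns the difference from the markers and not a change of these genes themselves. Each of the 5 had an exact permutation p of 0.0286, two-sided, the smallest p possible, which was not adjusted over the 10 genes. Msr1, a gene of macrophages itself, had a log2 difference from the marker mean of 1.99 ± 0.76 (SD, n = 4) in the controls and of -1.01 ± 0.49 (SD, n = 4) in the injured arteries.

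**Figure D4:**
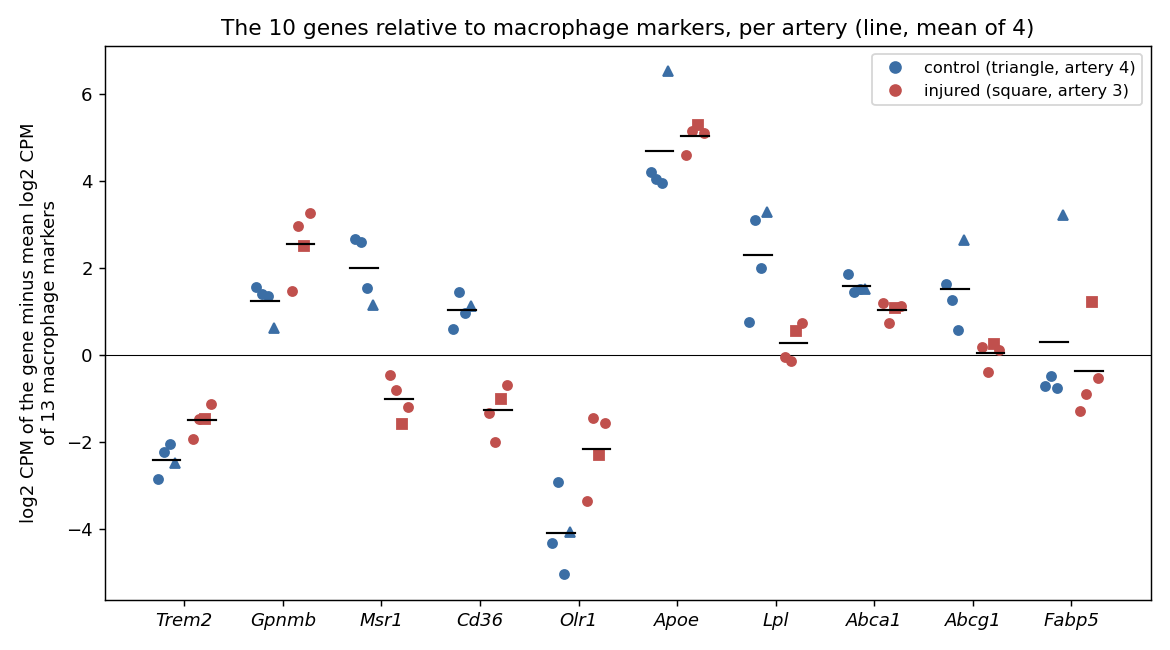
Log2 CPM of each gene minus the mean log2 CPM of 13 macrophage markers in the same artery, for control (blue) and injured (red) arteries, with a line at the mean of 4. Trem2 lies higher in all injured arteries, and Msr1, Cd36, Lpl, Abca1 and Abcg1 lie lower in all of them.

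Further genes of the same pathways were examined in 7 lists that hold none of the 10 genes. Of their 115 genes 113 were counted and 94 had enough counts for the test. Of these, 10 rose and 8 fell, where 8.31% of all tested genes were called higher and 2.57% lower, and 45 had a positive log2 fold change, with a median of -0.01 against -0.06 over all tested genes. The 18 calls became 8 without injured artery 4 and 10 without injured artery 2. Of all tested genes, 7.74% and 7.82% were called in these fits, against 10.9% with all arteries. Without control artery 4, 15 of 96 tested genes rose and 10 fell, where 1817 of all 14758 tested genes were called higher and 581 lower.

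The list of TREM2 signalling and lipid-associated macrophage genes had 5 of 16 tested genes called higher and none lower, with a median log2 fold change of 0.25. Itgax, the integrin CD11c, had the largest rise with a log2 fold change of 5.42 (standard error 0.32, FDR = 0.000162 in edgeR's test), from 0.656 to 1.04 CPM in the controls to 23.8 to 48.4 CPM. Tyrobp, the adaptor DAP12 through which TREM2 signals, went from 2.95 to 6.02 CPM in the controls to 38.0 to 49.9 CPM in the injured arteries, with a log2 fold change of 3.20 (standard error 0.24, FDR = 0.000226). Syk, the kinase that binds DAP12, had 3.11 (standard error 0.24, FDR = 0.000269). Spp1 and Lgals3, osteopontin and galectin-3, completed the called genes with 1.55 and 1.10, and were chosen for naming with their values in view. Without control artery 4, Hcst, the adaptor DAP10, was called as a further gene with 3.30, likewise named with its value in view.

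In the list of further scavenger and lipoprotein receptors, 2 of 15 tested genes rose and none fell, with a median of 0.26. Scarb1, the receptor for high-density lipoprotein, rose from 46.8 to 63.3 CPM in the controls to 112.7 to 171.7 CPM, a log2 fold change of 1.34 (standard error 0.16, FDR = 0.00148 in edgeR's test). Cd5l, a protein that macrophages secrete, had 1 count in control artery 4 and none in the other controls, against 34 to 88 counts in the injured arteries. Without control artery 4, 3 genes were called higher, the other being Megf10, an engulfment receptor named with its value in view, at a log2 fold change of 3.42.

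Among 16 tested LXR and cholesterol efflux genes other than Abca1 and Abcg1, 1 rose, 1 fell and the median log2 fold change was 0.16. Nr1h3, which codes for LXR alpha, was at 14.5 to 24.6 CPM in the controls and 20.3 to 28.5 CPM in the injured arteries, and its log2 fold change was 0.20 (standard error 0.19, FDR = 0.516 in edgeR's test). Ch25h, the enzyme that makes 25-hydroxycholesterol, rose by 1.45 (FDR = 0.0291), and Abcg4, a relative of Abcg1, changed by -1.29 (FDR = 0.00163), from 52.4 to 82.6 CPM to 23.5 to 31.1 CPM. Without control artery 4, 4 genes of the list were called higher. They included Apoc1, the apolipoprotein gene next to Apoe, at a log2 fold change of 6.15 (FDR = 0.0122 in edgeR's test). With all arteries Apoc1 had too few counts and was not tested. Arl4c (2.53) and Abca7 (1.36) were called as well. Apoc1, Arl4c and Abca7 were chosen for naming with their values in view.

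Genes of lipid droplets and of cholesteryl esters had 1 of 17 tested genes called higher and 3 lower, with a median of -0.39. Lipa, the lysosomal acid lipase that frees cholesterol from its esters, had a log2 fold change of 1.26 (standard error 0.36, FDR = 0.0452 in edgeR's test), and the value was 1.74 without control artery 4, which at 69.2 CPM lay above injured artery 1. Plin2, the coat protein of macrophage lipid droplets, lay higher in every injured artery (65.3 to 75.3 CPM) than in any control (35.4 to 61.4 CPM), but its log2 fold change of 0.64 (FDR = 0.0423) stayed under the required fold. Soat1, which esterifies cholesterol in macrophages, had 0.49 (FDR = 0.0826). The called falls were those of Cidea at -1.46, Plin4 at -1.45 and, named after its value was seen, Pnpla2 at -1.43. Fat cells are known to express these genes. The adipocyte markers Plin1 and Cidec in the same list had log2 fold changes of -1.46 and -1.99 without being called, and 1 of the 10 adipocyte markers had a positive one. Adipocyte markers were highest in control arteries 2 and 4. In control arteries 1 to 4, Cidea stood at 30.2, 68.9, 28.2 and 56.7 CPM and Plin4 at 239.2, 217.1, 245.6 and 121.5 CPM. The part of fat in these falls was not tested.

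Of 13 tested genes of fatty acid binding, uptake and activation, none rose and 3 fell, and the median was -0.64. Rbp4, the retinol carrier, changed by -1.68 (FDR = 0.0312 in edgeR's test), Acsl1, which activates fatty acids, by -1.55 (FDR = 0.0426) and Cav1, the main protein of caveolae, by -1.48, the last named after its value was seen. Fabp4, which fat cells and macrophages make, varied over 54.0 to 396.4 CPM in the controls and had a log2 fold change of -0.63 (standard error 0.56, FDR = 0.49). Among 5 tested partners of lipoprotein lipase and related lipases none was called. Gpihbp1, which carries the lipase across the capillary endothelium, had 1.07 (standard error 0.55, FDR = 0.229), and Angptl4, an inhibitor of the lipase, 0.30 (standard error 0.58, FDR = 0.757).

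Of 12 lipid-sensing transcription factors and MiT/TFE factors, 1 rose and 1 fell, and without control artery 4, 1 rose and 3 fell. Tfec, the MiT/TFE factor of macrophages, went from 0.216 to 1.39 CPM in the controls to 3.01 to 4.25 CPM in the injured arteries (log2 fold change 2.27, FDR = 0.0161 in edgeR's test). Ppara, which drives fatty acid oxidation, changed by -1.90 (FDR = 0.0167). Pparg, the factor of fat cells and alternatively activated macrophages, had -0.40 (standard error 0.46, FDR = 0.603). The further falls without control artery 4 were those of the coactivators Ppargc1a (-1.02) and Ppargc1b (-1.01), named with their values in view.

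**Figure D5:**
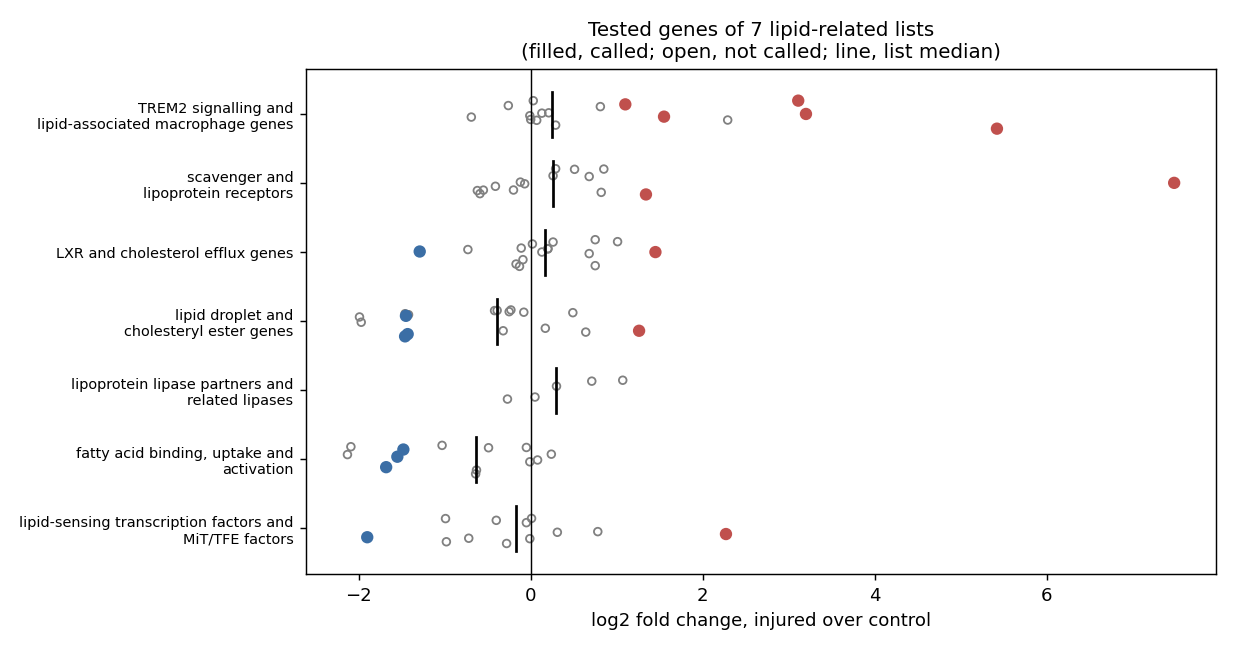
Log2 fold change (injured over control) of the tested genes of 7 lipid-related lists, filled where called (red higher, blue lower) and open where not, with a line at each list's median. The list of TREM2 signalling has 5 called genes, all higher, and that of fatty acid binding, uptake and activation has 3, all lower.

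To describe the course of each gene over the 8 arteries, the 3 tested genes with the smallest root mean square difference in centred log2 CPM were taken. For Trem2 they were Pik3r5, Cenpt and Arhgap25, at a difference of 0.16 to 0.19, and for Gpnmb Mxd3, Ankle1 and Mybl2, at 0.34 to 0.37. Olr1 had no gene as near, with Prnd, Clec7a and Clec4e at 0.48 to 0.59. Nearest to Apoe were Sh2d1b, Ttyh2 and RT1-DOb (0.31 to 0.34), and to Fabp5 Prkcb, Sapcd2 and Basp1 (0.34 to 0.37). Abca1 was followed most closely by Mex3a, Tll1 and Rem1 (0.16 to 0.19), and Abcg1 by Fam167a, LOC691909 and Lacc1 (0.13 to 0.20). For Lpl the nearest were Cecr2, Angptl4 and Lipe, the hormone-sensitive lipase of fat cells (0.17 to 0.32). Msr1 was nearest to Mir155, Errfi1 and Epha4 (0.18 to 0.23), and Cd36 to Arhgef15, Mpzl2 and Rcl1 (0.21 to 0.22). These are descriptions over 8 libraries that share their group difference.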

How the data were processed

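Total RNA of 8 rat carotid arteries had been sequenced, 4 injured and 4 contralateral controls. The authors deposited raw read counts per gene, without normalization, and the submitters' processing notes name HISAT2 2.0.4; the counting tool, genome build, annotation and strand setting are not given in the sources used here. Groups were taken from the labels. The study describes biological replicates, and the labels name the left artery as injured and the right one as control, so the arteries of a group were taken to be from separate animals.

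Counts were scaled with TMM factors and filtered with filterByExpr in edgeR 4.0.16 (R 4.3.3), which left 14359 genes, and tested with glmQLFit and glmQLFTest. Calls required FDR under 0.05 and a fold change above 2, the study's criteria. The standard error is the log2 fold change divided by the square root of F. Exact permutation tests used log2 CPM with a prior count of 2. On simulated counts for this comparison with 200 genes changed 4-fold, edgeR recovered 66.5% of them with 6 false calls over 14096 genes and DESeq2 1.42.0 82.5% with 61 false calls over 14318 genes.

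The 10 genes and all lists were chosen with earlier results of these data known. Named were the 10 genes, in each list the 3 called genes that rose most and the 2 that fell most, 8 genes fixed by name (Tyrobp, Nr1h3, Soat1, Plin2, Pparg, Fabp4, Gpihbp1 and Angptl4), and for each of the 10 the 3 nearest genes. Of 103 marker genes 101 matched the table, 1 of them by a synonym. Of the other marker lists, T cell markers had 2 of 7 tested called higher, neutrophil 2 of 3 (1 without control artery 4), endothelial 3 higher and 1 lower of 10 (2 and 1), adipocyte 1 lower of 10, adventitial fibroblast 1 higher and 2 lower of 7, contractile smooth muscle 7 lower of 10 (9), and sympathetic neuron 0 of 6 (2 higher without control artery 4). Fabp4, Plin1, Cidec and Fabp7 are both in a marker list and in a pathway list. Alternatives were DESeq2, other scaling factors, other filters, a replicate block, each artery left out, FDR alone, testing against a 2-fold change and, chosen after seeing the data, control artery 4 and injured artery 3 both left out.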

Additional observations from a re-analysis of the deposited data

Results flagged for a closer look

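In 42 groups of 4 arteries (10 genes and 11 marker lists in each condition), the gap of the most extreme artery to its neighbour was divided by the range of the group, and 6 groups exceeded Dixon's critical value for 4 samples. Chance alone flags about 1 group in 20.

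Apoe stood apart in control artery 4, at 1164 CPM against 251.0 CPM in the next control (ratio 0.956). Fabp5 stood apart in the same artery, at 117.4 against 10.7 CPM (ratio 0.963), and in injured artery 3, at 148.1 against 51.0 CPM (ratio 0.83). The summed sympathetic neuron markers were far from the rest in those arteries, with 12035 against 9.0 CPM in control artery 4 (ratio 0.9997) and 2805 against 199.9 CPM in injured artery 3 (ratio 0.933). The brain neuron markers, at 22.3 against 5.41 CPM in control artery 4, gave a ratio of 0.924.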

How the results depend on the processing

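The number of called genes among the 10 stayed at 4 to 7 in all 18 alternatives. It was 5 with DESeq2, RLE, upper-quartile and no scaling factors, with no filter and with FDR alone, 4 with at least 10 counts in every artery, where Olr1 was not tested, and 4 in a test against a fold change of 2, which did not call Apoe. With single arteries left out it was 4 to 7. Of 159 refits of single genes, 144 kept direction and call, 7 lost the call, all in Apoe, 4 gained it and 4 reversed, namely Cd36 (-0.05 and -0.06 within a range of -0.06 to 0.35 with single arteries left out) and Lpl (-0.21 and -0.03 within -0.21 to 0.41), neither called in any. Pathway genes called were 18, against 11 with the replicate block, 4 in the test against a fold change of 2, and 8 to 25 with single arteries left out (10 without injured artery 2, 8 without injured artery 4). Over all genes, 1562 were called, against 1187 with the replicate block, 661 in the test against a fold change of 2 and 2468 with FDR alone. The number was 1154 without injured artery 2, 1142 without injured artery 4, 2398 without control artery 4 and 2473 with injured artery 3 left out as well as control artery 4. The causes were not tested. With library totals only, the median log2 fold change of all tested genes was 0.12 in place of -0.06, and the 10 genes kept their direction; the median of the transcription factor list turned from -0.17 to 0.02.

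The study describes self-controls, but the labels do not say which injured and control arteries share a rat. Arteries with the same number deviated from their group means with correlations of 0.301, 0.45, -0.52 and -0.416. These correlations cannot decide whether the numbers mark pairs, and the numbers were not treated as pairs. The exact permutation tests therefore took the arteries as unpaired, and any sharing of rats between the groups was not used. With the replicate block the same 5 genes were called, Apoe at a log2 fold change of 2.85 and an FDR of 0.0346 in edgeR's test. Depth limits the control level of Olr1 most.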
